A study of Mus musculus with 4 samples.

Results

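Nuclear-encoded subunits of the mitochondrial respiratory chain and ATP synthase were followed across 4 mouse lung cancer lines. They were taken by symbol, as the genes named Nduf with a, b, c, s or v, Sdha to Sdhd, Uqcr, Cyc1, Cox4 to Cox8 and Atp5, with 1 row kept per symbol and names containing -ps left out. This gave 85 genes of 34147 distinct symbols, of which 35 belong to complex I, 4 to complex II, 9 to complex III, 17 to complex IV and 15 to complex V. The other 5, Ndufa4l2, Cox7a2l, Atp5l2, Atp5s and Atp5sl, match by name and are not counted as subunits of a complex here. Ndufa4 is counted with complex IV. Cox4i1 was not analysed here.

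The inner mitochondrial membrane carries electrons from NADH through complex I, or from succinate through complex II, to ubiquinone, then through complex III and cytochrome c to oxygen at complex IV. Complexes I, III and IV pump protons as they do so, and complex V, the ATP synthase, uses the returning protons to make ATP. Complexes I, III, IV and V are built from both genomes, with a small core translated inside mitochondria and the rest imported from the cytosol, whereas all subunits of complex II are nuclear-encoded.

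The study compared lines labelled metastatic with lines labelled non-metastatic. The metastatic lines, 238N1 and 482N1, came from lymph nodes, and the non-metastatic lines, 368T1 and 394T4, from the lung. All 4 derived from tumours of strain 129S1/SvImJ mice with floxed p53 alleles (p53flox/flox), started with lentiviral vectors carrying Cre recombinase, and the cancer cells were then grown in culture. Each line was represented by 1 library, so n = 2 lines per group, tumour site and metastasis status change together and cannot be told apart, and p-values measure only the spread between these lines. The age of the mice and the number of clones behind a line are not stated in the labels.

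Levels are the authors' FPKM, fragments scaled to transcript length and library size, so genes can be compared per length. Where 4 FPKM values are listed without line names, they follow the order 238N1, 482N1 (metastatic), 368T1, 394T4 (non-metastatic). The FPKM of the 4 libraries summed to between 924354 and 2279790, with 18.7% to 62.4% taken by the row AC113316.1, whereas protein-coding genes summed to between 412799 and 491717. The worth of 1 fragment at low values gave 482N1, 368T1 and 394T4 relative depths of 0.581, 0.610 and 0.554 of that of 238N1, if all were normalised alike, while absolute depth is unknown. The epithelial markers Krt8, Krt18, Krt19 and Cdh1 lay between 104 and 1450 FPKM in every line. Epcam was at 4.13 and 4.76 in the metastatic and 54.0 and 34.3 in the non-metastatic lines. The lung marker Nkx2-1 was at 0.0619 and 0 in the metastatic and 2.42 and 4.00 in the non-metastatic lines. Sftpc, another lung marker, was at 1.90 in 394T4 alone. Of 7 leukocyte markers, 5 were at 0 in at least 1 line, Ptprc, Cd3e and Itgam among them in all 4, and the list summed to between 2.07 and 2.83 FPKM. Of 8 fibroblast and endothelial markers, Dcn, Col1a2 and Pecam1 were at 0 in all lines, and the list summed to 39.6 FPKM in 482N1 against 0.689 in 238N1, 2.45 in 368T1 and 4.38 in 394T4.

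Of the 85 genes, 78 had a mean of at least 1 FPKM and were tested. Between 10 and 100 FPKM lay 47 of them, 27 were above that range and 4 below. The highest was Atp5b, the catalytic beta subunit of ATP synthase, with 698 and 580.2 FPKM in the metastatic lines and 1082 and 893 in the non-metastatic lines. The 7 genes under the filter are mostly members of isoform families, in which a tissue uses one of several interchangeable genes. Cox7b2, Cox8b and Cox8c were listed at 0 in all 4 lines, Cox6a2, the heart and muscle form, at 0.140 in 368T1 alone, and Cox4i2 at 0.383 in 482N1 alone. Cox6b2, the testis form, had 2.98, 0.188, 0 and 0.396 FPKM, and Ndufa4l2 had 0.0903 in 482N1 alone. The partners of these genes were abundant: Cox6a1 at 296 to 488 FPKM, Cox6b1 at 185 to 252, Cox8a at 233 to 332, Cox7a2 at 42.6 to 64.5 and Ndufa4 at 137 to 183. Cox7a1, the heart and muscle form beside Cox7a2, was low at 6.66 to 7.85 FPKM.

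**Figure D1:**
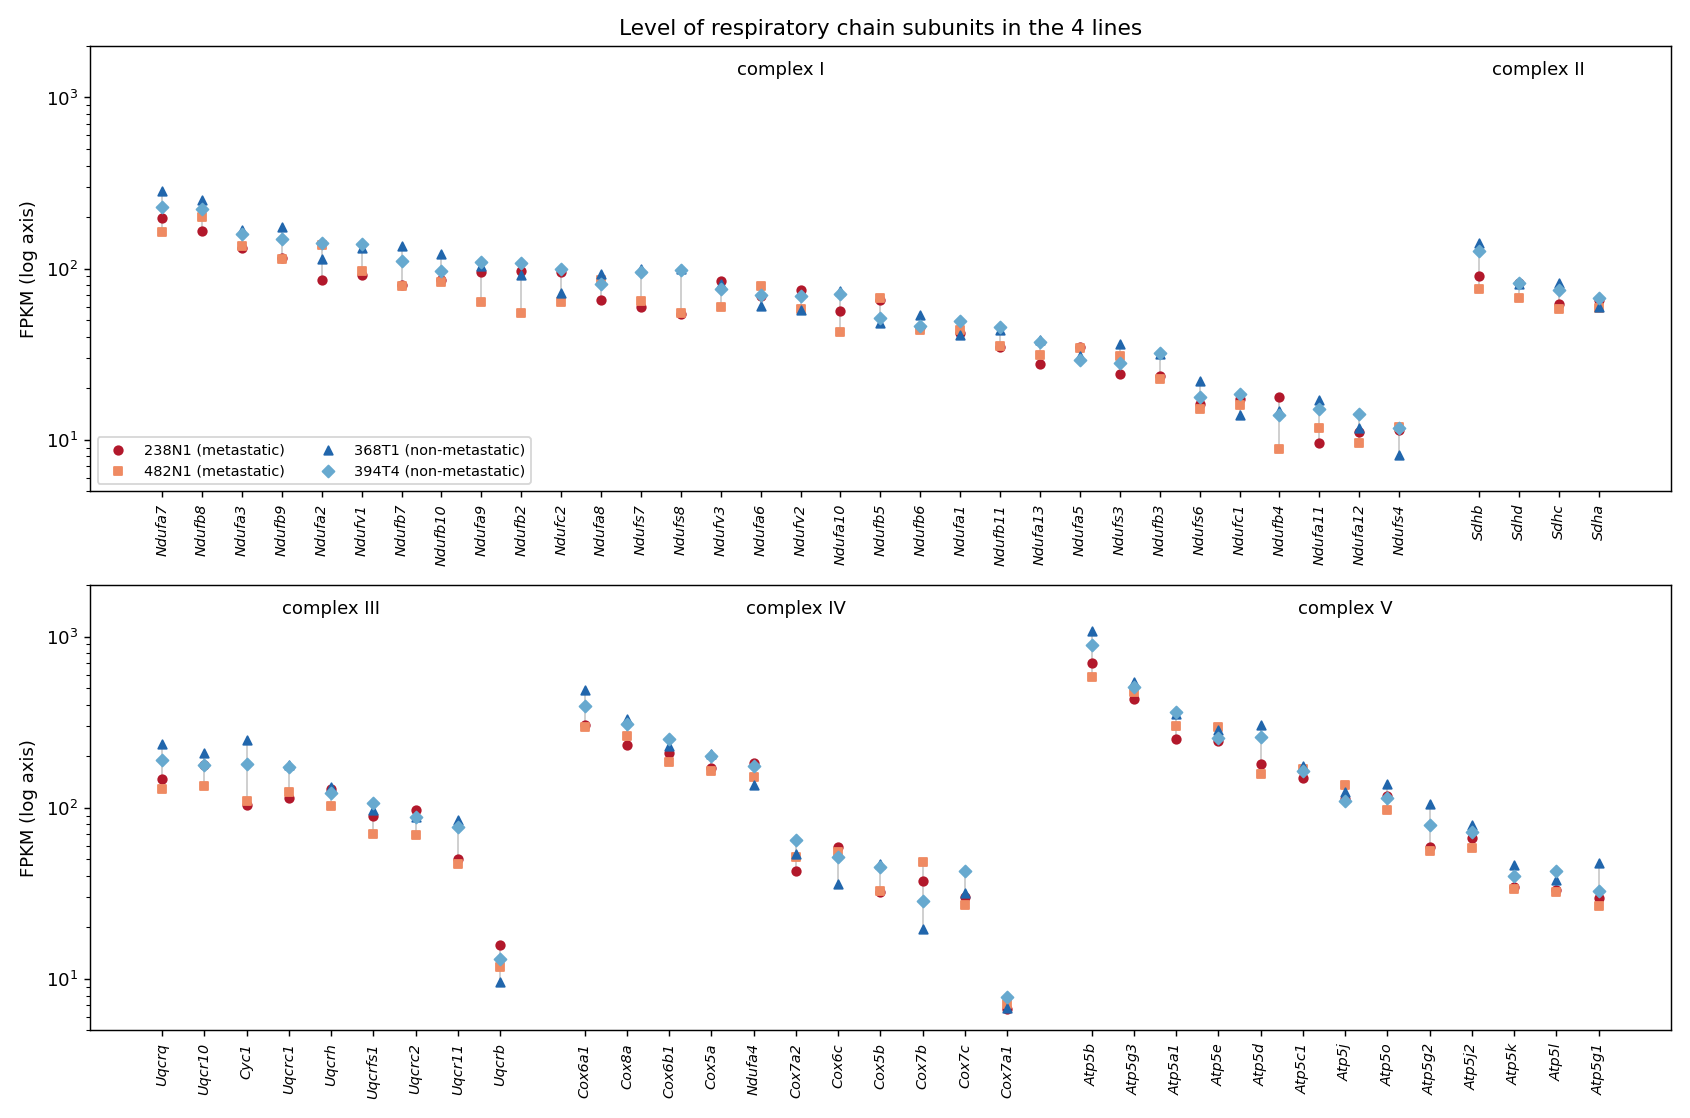
FPKM on a log axis of nuclear-encoded subunits that were tested and above 0 in all 4 lines, 1 of them not shown, grouped by complex and ordered by mean level, with 1 point per line. Atp5b lies highest, between 580.2 and 1082, and in most columns the red and orange points of the metastatic lines lie below the blue points of the non-metastatic lines. This holds on the deposited scale and not with libraries scaled to the sum of all FPKM, where the members' median difference was 0.35.

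No subunit passed the test between the groups. Testing used limma (variance trend, two-sided) on log2(FPKM + 1) over 12425 genes, with Benjamini-Hochberg adjustment. The lowest adjusted p among the members was 0.288, that of Ndufs8, and over all genes 6 genes (0.0483%) were called lower and 14 (0.113%) higher in the metastatic lines. At an unadjusted p under 0.05 there were 19 members lower and 2 higher, against 8.68% and 5.7% of all genes tested. These became 0 and 4 with libraries scaled to the same sum of all FPKM, 5 and 2 with that sum taken without the highest row, 6 and 3 with the sum of protein-coding genes, and 3 and 1 without 368T1. Without overlap between the groups, the metastatic lines stood at the bottom in 42 of 78 (53.8%) and on top in 7 (8.97%). In the other 29 the groups overlapped. The same held for 26.9% and 28.3% of all genes tested. The members are short, with a median length of 955 bases. Of the 820 tested genes under 1000 bases and above 0 in every library, 46.0% were lower without overlap and 10.9% higher. With each library scaled to the same sum of all FPKM, the members' counts became 0 and 15. In that scaling the median log2 difference of all genes also moved, from 0.045 to 0.61. Shares of all genes are not given here for the alternative scalings. In 36 of the 78 (46.2%) the metastatic lines were lower by more than the gap between the lines of either group, and in 5 (6.41%) higher by more, against 20.6% and 18.9% of all genes tested. In these bulk libraries, fewer cells of a type and less RNA per cell cannot be told apart.

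The median log2 difference, metastatic minus non-metastatic, was -0.29 over the members and 0.045 over all genes tested, which places the members at -0.34 relative to the median gene. Over the tested genes under 1000 bases and above 0 in every library it was -0.25. The complexes were close to each other, with medians of -0.30 for complex I, -0.26 for complex II, -0.35 for complex III, -0.29 for complex IV and -0.28 for complex V. Of the 78 members, 59 had a negative and 19 a positive difference. The sign on its own scale depended on how the libraries were scaled: with each library brought to the same sum of all FPKM, the members' median was 0.35 and that of all genes 0.61. Relative to the median gene the members stayed negative in all 19 alternatives, between -0.38 and -0.079. Scaling a library by 1 factor moves its genes nearly alike and so nearly cancels in this measure. Those alternatives are therefore little check of it. With quantile normalization it was -0.12, and with GC content and transcript length regressed out -0.079.

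Among the 74 members above 0 in every library, 368T1 had the highest level in 37, 394T4 in 19, 238N1 in 12 and 482N1 in 6. The line 482N1 had the lowest level in 37, 238N1 in 21, 368T1 in 13 and 394T4 in 3. Over all genes above 0 in every library the order was another, since 482N1 was highest in 37.4% and 368T1 lowest in 38.8%. The low line 482N1 also had more Col1a1 (16.3 FPKM), Acta2 (16.3), Col3a1 (5.82) and Pdgfrb (1.22) than the other lines. Of the same list, Dcn, Col1a2 and Pecam1 were at 0 in all lines, and Cdh5 did not exceed 0.0785. The part of these genes in the result was not tested, and without 482N1 the members' median was -0.23. Together the members made up 1.77% and 1.74% of protein-coding FPKM in the metastatic lines and 1.93% and 1.87% in the non-metastatic lines. That protein-coding sum includes the 13 mitochondrially encoded subunits. These had 24664 and 25064 FPKM in the metastatic and 14003 and 18076 in the non-metastatic lines, which lowers the metastatic shares more.

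**Figure D2:**
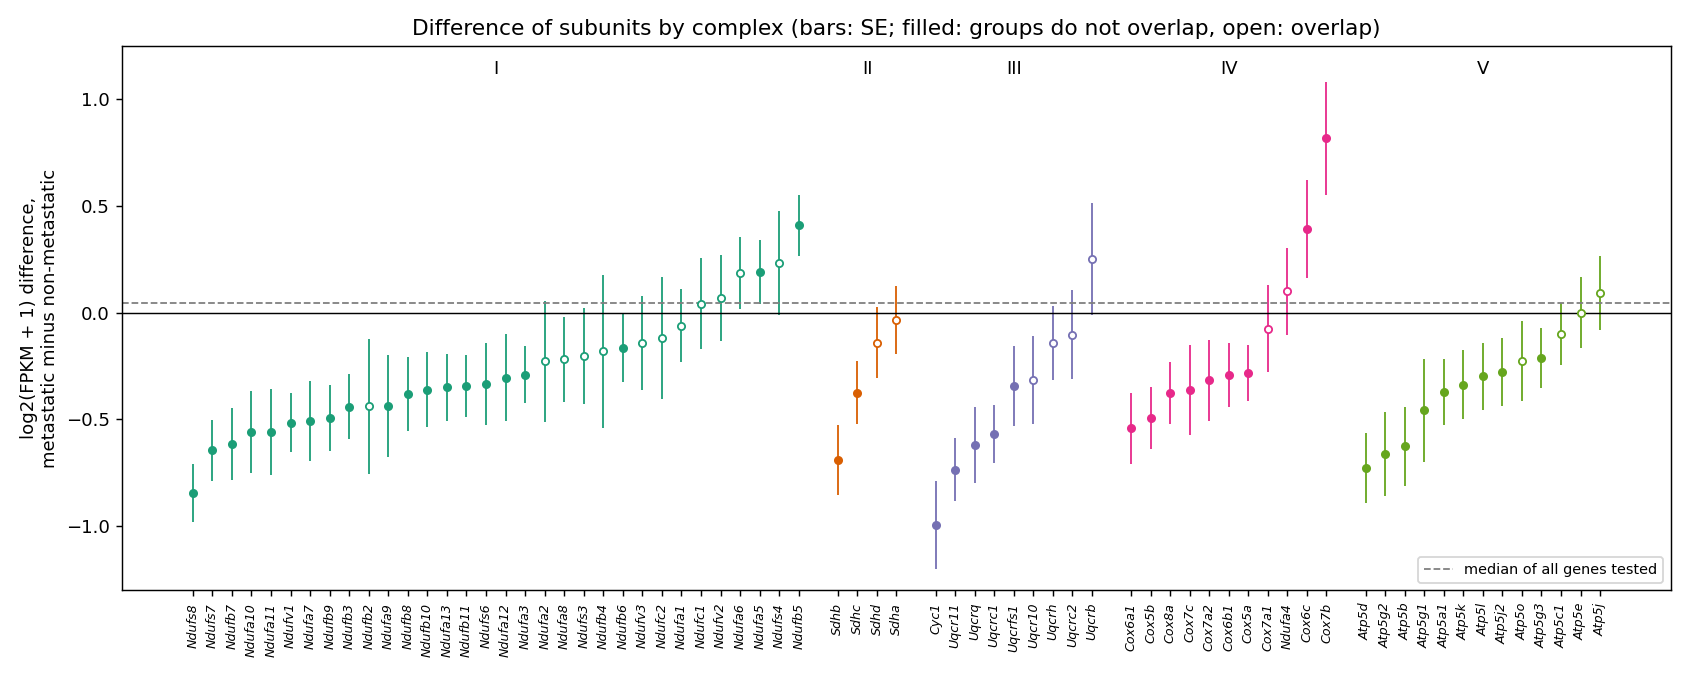
Difference in log2(FPKM + 1), metastatic minus non-metastatic, of subunits above 0 in all 4 lines, 1 of them not shown, by complex, with bars of 1 SE from limma (n = 2 lines per group). Filled points are subunits whose groups do not overlap, and the dashed line is the median of all genes tested at 0.045. Most points lie below it, from Cyc1 at -0.99 to Cox7b at 0.82, and with libraries scaled to the sum of all FPKM the median of the members was 0.35.

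Promoter sequence is shown for 4 members because it holds the binding motifs of factors known for respiratory genes and because the genes differ in how their lines were ordered. Windows of 280 bases, from 250 before to 30 after the first-listed start in RefSeq (GRCm38.p6), were matched for 66 members. Capitals mark exact matches on either strand to GCGCANGCG, the core of the motif of NRF1, or to CCGGAAGT, that of GABP. Cox6a1 (chr5:115348929-115349208, minus strand), Uqcrc1 (chr9:108936398-108936677, plus strand) and Uqcr11 (chr10:80406792-80407071, minus strand) were lower without overlap in the metastatic lines, and Sdha (chr13:74350211-74350490, minus strand) had overlapping groups.

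Cox6a1: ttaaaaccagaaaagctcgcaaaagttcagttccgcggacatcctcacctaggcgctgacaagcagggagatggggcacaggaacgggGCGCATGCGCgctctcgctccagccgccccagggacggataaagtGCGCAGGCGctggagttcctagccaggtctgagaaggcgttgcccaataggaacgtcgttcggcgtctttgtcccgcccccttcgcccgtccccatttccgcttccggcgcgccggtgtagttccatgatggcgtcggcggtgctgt
Uqcrc1: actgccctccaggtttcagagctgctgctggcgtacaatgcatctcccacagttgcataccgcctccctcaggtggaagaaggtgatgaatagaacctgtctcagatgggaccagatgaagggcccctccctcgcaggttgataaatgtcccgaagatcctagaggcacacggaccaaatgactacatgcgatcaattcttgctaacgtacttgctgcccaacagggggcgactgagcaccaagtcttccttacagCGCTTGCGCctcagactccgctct
Uqcr11: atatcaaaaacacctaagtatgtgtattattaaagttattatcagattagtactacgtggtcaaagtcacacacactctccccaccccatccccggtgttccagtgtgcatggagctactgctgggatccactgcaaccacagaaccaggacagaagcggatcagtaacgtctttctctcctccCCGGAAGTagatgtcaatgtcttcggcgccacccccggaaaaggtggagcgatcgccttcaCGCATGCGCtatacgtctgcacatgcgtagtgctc
Sdha: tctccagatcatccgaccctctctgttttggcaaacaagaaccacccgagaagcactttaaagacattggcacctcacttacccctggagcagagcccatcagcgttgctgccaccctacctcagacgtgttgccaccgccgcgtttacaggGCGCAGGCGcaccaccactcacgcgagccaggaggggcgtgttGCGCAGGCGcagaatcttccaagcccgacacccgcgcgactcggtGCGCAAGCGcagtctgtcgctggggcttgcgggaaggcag

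Cox6a1 held 3 matches to the NRF1 motif, of which 2 overlap on opposite strands, Sdha held 3 and Uqcrc1 held 1. Uqcr11 held 1 match to each motif. Among the 63 tested members with a window, 18 (28.6%) held the NRF1 motif, against 6.19% of 27025 promoters and 8.43% of those of protein-coding genes. By order of the lines, 10 of 36 members lower without overlap held it, 7 of 24 overlapping members and 1 of 3 higher members. The core was chosen after a form with 1 more C at its end had been searched, which was in 15 of 63 (23.8%), against 4.57% of all promoters and 6.30% of those of protein-coding genes, and in 7 of 36, 7 of 24 and 1 of 3 by the same order. The GABP motif was in 5 of 63 (7.94%), against 3.83% of all promoters and 5.07% of those of protein-coding genes. AAGATGGCG, the motif of YY1, was in 0 of 63, against 1.10% and 1.37%, and TCAAGGTCA, that of ERR alpha, in 1 of 63 (1.59%), against 0.400% and 0.326%. A match describes these letters only and shows no binding.

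In complex I, the NADH dehydrogenase, 19 of 35 subunits (54.3%) were lower without overlap, 3 (8.57%) higher and 13 overlapping. Over all genes tested, 26.9% were lower and 28.3% higher. The 7 core subunits hold the flavin and the iron-sulfur clusters that pass electrons to ubiquinone. Ndufs8 (chromosome 19, 3908870 to 3912717, mm9), which holds a pair of clusters near the quinone site, had 54.5 and 54.7 FPKM in the metastatic lines against 99.2 and 98.3 in the others (log2 difference -0.84, SE 0.14, adjusted p = 0.288). Its lines agreed closely within each group, and this was the smallest adjusted p of the whole set. Ndufs7, the subunit that holds the last cluster of the chain, had 59.3, 64.8, 98.9 and 96.0 FPKM in the same order of lines (log2 difference -0.64, SE 0.14, adjusted p = 0.330). Ndufv1, which binds the flavin and NADH, had 91.4, 97.0, 131 and 138 FPKM (log2 difference -0.51, SE 0.14, adjusted p = 0.335). In these 3 core subunits the groups did not overlap.

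Other core subunits did not share that order. Ndufv2, the partner of Ndufv1, had 74.7, 58.4, 57.6 and 68.8 FPKM (log2 difference 0.068, SE 0.20, adjusted p = 0.868). Ndufs3 had 24.3, 30.97, 36.0 and 27.9 FPKM, with overlapping groups. Ndufs1, the largest subunit of the core (chromosome 1, 63190170 to 63223396), had 25.4 and 31.2 FPKM in the metastatic lines, a listed 0 in 368T1 and 24.4 in 394T4. A listed 0 can be a failed estimate: 293 of 5583 genes that reached 20 FPKM in some line (5.25%) were at 0 in another. No fold change is given for it.

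The 28 accessory subunits of complex I, which surround and stabilise the core, had a median log2 difference of -0.32. Of them 15 (53.6%) were lower without overlap and 2 (7.14%) higher, against 26.9% and 28.3% of all genes. The most abundant was Ndufa7 at 196, 164, 283.5 and 230.5 FPKM. Ndufb5 was the subunit with the most positive difference among those above 0 in every line, at 65.6, 67.7, 48.3 and 51.5 FPKM (log2 difference 0.41, SE 0.14, adjusted p = 0.340). Its exons overlap those of Mrpl47, and whether strand was used in counting is not given in the sources used here. Exons of members in both directions overlap those of other genes. Among them are Atp5d (with Dos) and Cox5a (with Gm17596), both lower in the metastatic lines, and Cox6c (with Vps13b), which was higher. Ndufs3, Uqcrc2 and Uqcrb also have such overlaps. Ndufs5 was the lowest of complex I by mean, with listed values of 0, 7.46, 0 and 13.7 FPKM.

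Complex II, succinate dehydrogenase, links the tricarboxylic acid cycle to the chain. Sdhb (chromosome 4, 140517118 to 140535108), its iron-sulfur subunit, had 89.9, 76.3, 142 and 127 FPKM (log2 difference -0.69, SE 0.16, adjusted p = 0.332). Sdhc, a membrane anchor, had 62.2, 58.4, 82.2 and 75.0 FPKM, again without overlap. The catalytic flavoprotein Sdha had 65.7, 58.9, 60.0 and 67.7 FPKM (log2 difference -0.035, SE 0.16, adjusted p = 0.920), the narrowest spread of any member above 0 in all lines, with 1.15 times between its highest and lowest line. Its sign changed with the scaling. Sdhd, the other anchor, had 82.3, 67.3, 81.6 and 82.7 FPKM, so that 482N1 alone stood below the rest. All 4 subunits had their lowest level in 482N1.

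Complex III, the cytochrome bc1 complex, had 5 of 9 subunits (55.6%) lower without overlap and none higher, against 26.9% and 28.3% of all genes. Cyc1 (chromosome 15, 76173953 to 76176364), cytochrome c1, which hands electrons to cytochrome c, had the most negative difference of all members. The metastatic lines had 103 and 109 FPKM, against 249.6 and 181 in the non-metastatic lines (log2 difference -0.99, SE 0.21, adjusted p = 0.328). The groups were far apart, though the non-metastatic lines also differed from each other. Uqcr11, a small accessory subunit, had 49.96, 46.8, 84.9 and 77.7 FPKM (log2 difference -0.74, SE 0.15, adjusted p = 0.328). Uqcrc1, a core protein facing the matrix, had 114, 123, 179 and 174 FPKM (log2 difference -0.57, SE 0.14, adjusted p = 0.332). Its partner Uqcrc2 had 96.5, 69.7, 87.8 and 88.6 FPKM, with overlapping groups. Uqcrfs1, the Rieske iron-sulfur protein, had 90.1, 70.4, 96.4 and 106.7 FPKM, without overlap. The most abundant member was Uqcrq, at 147, 128, 234 and 191 FPKM. Uqcrb was the lowest and the one with a positive difference, at 15.7, 11.7, 9.58 and 13.1 FPKM (log2 difference 0.25, SE 0.26, adjusted p = 0.605). Near-identical copies elsewhere in the genome numbered 3 for Uqcrb and 2 for Uqcr11.

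In complex IV, cytochrome c oxidase, 7 of 11 tested subunits (63.6%) were lower without overlap and 2 (18.2%) higher. Over all genes tested the shares were 26.9% and 28.3%. Cox6a1, the most abundant, had 307, 296, 488 and 395 FPKM (log2 difference -0.54, SE 0.17, adjusted p = 0.335). Cox5b, a zinc-binding subunit, had 32.3, 32.7, 47.0 and 45.3 FPKM (log2 difference -0.49, SE 0.15, adjusted p = 0.335), and Cox5a had 171, 163, 206 and 201. Cox7b (chromosome X, 103211039 to 103217789) went the other way, at 37.1, 48.3, 19.6 and 28.4 FPKM (log2 difference 0.82, SE 0.26, adjusted p = 0.340). Cox6c was likewise above without overlap, at 58.6, 54.8, 35.7 and 51.6 FPKM (log2 difference 0.39, SE 0.23, adjusted p = 0.426), with the metastatic lines only a little over 394T4. Near-identical copies elsewhere in the genome numbered 2 for Cox7b, 2 for Cox5b and 1 for Cox6c, and how reads shared with copies were assigned is not given in the sources used here. Ndufa4, first named as a complex I subunit, had 183, 152, 137 and 177 FPKM, with overlapping groups.

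In complex V, 9 of 15 subunits (60%) were lower without overlap and none higher, against 26.9% and 28.3% of all genes. In the catalytic F1 head, Atp5b (chromosome 10, 127520329 to 127527447) at the levels given above had a log2 difference of -0.63 (SE 0.19, adjusted p = 0.335), and Atp5a1, its alpha partner, had 253, 301, 352 and 361 FPKM. Of the central stalk that turns within the head, Atp5d (chromosome 10, 79601377 to 79608563) had 180.2, 158, 303 and 258 FPKM (log2 difference -0.73, SE 0.16, adjusted p = 0.330). Atp5c1 had 149, 169, 176 and 165 FPKM and Atp5e 246, 295, 285 and 255, both with overlapping groups. The 3 subunits of this stalk did not share an order of lines.

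The membrane ring of ATP synthase is built from a c subunit that 3 genes, Atp5g1, Atp5g2 and Atp5g3, encode as the same mature protein. Their summed level was 519.9, 559.6, 696 and 619.9 FPKM. Atp5g3 gave 82.9%, 85.2%, 78.1% and 81.9% of the sum, and Atp5g2 11.3%, 10.01%, 15.1% and 12.8%. All 3 were lower without overlap, Atp5g2 at 58.9, 56.0, 105.3 and 79.5 FPKM (log2 difference -0.66, SE 0.20, adjusted p = 0.335), Atp5g3 at 431, 477, 543 and 508, and Atp5g1 at 29.8, 26.9, 47.3 and 32.4. Near-identical copies numbered 3 for Atp5g2 and 1 for Atp5g1. Atp5j, coupling factor 6 of the outer stalk, had the most positive difference of the complex among members above 0 in every line, at 113, 137, 124 and 109 FPKM (log2 difference 0.094, SE 0.17, adjusted p = 0.778), and its exons overlap those of Gabpa.

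Atp5f1, the b subunit of the outer stalk (chromosome 3, 105745616 to 105763017), had 72.0 FPKM in 482N1 and a listed 0 in every other line. Wdr77, whose exons overlap it, was at 0 in the same 3 libraries and at 41.0 in 482N1. Ndufs1 and Atp5f1 were the 2 members at 0 in a line with at least 20 FPKM in another, of 67 that reached 20. Atp5h, another outer stalk subunit and the lowest of the complex, had 5.41, 10.3, 10.4 and 0 FPKM, with 4 near-identical copies. Atp5l, subunit g, had 32.2 to 42.8 FPKM and 8 such copies. Atp5l2, an annotated pseudogene, had 47.9 to 63.1 FPKM. Over the set, 20 of 77 tested members searched had at least 1 further stretch of NCBIM37 at 95% identity or more over at least 80% of their coding sequence.

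Of the members outside the complexes, Cox7a2l, which helps join complexes III and IV, had 97.4, 79.4, 78.8 and 97.1 FPKM, with overlapping groups. Atp5s had 2.74, 2.55, 1.497 and 1.71 FPKM and Atp5sl 14.9, 11.9, 11.1 and 10.2, both above without overlap. The 25 tested genes of the core list had a median log2 difference of -0.37. This list is not limited to catalytic subunits and also holds Sdhc, Sdhd, Uqcrc1, Uqcrc2, Cox5a and Cox5b. Of the 25, 17 (68%) were lower without overlap and 1 (4%) higher, against 26.9% and 28.3% of all genes tested. The 1 higher was Ndufs1, with its listed 0 in 368T1.

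The difference between the groups went with base composition, among the members as among all genes. Over 73 members above 0 in every line, Spearman's rho between the GC content of the longest transcript and the log2 difference was -0.55, and over 9981 genes it was -0.50. These points are genes of the same 4 libraries and not independent replicates. For members of up to 45% GC the median difference was 0.068 (11 genes), against 0.43 for all genes in that range. From 45% to 50% it was -0.17 (17 genes) against 0.15, from 50% to 55% it was -0.28 (26 genes) against -0.099, and above 55% it was -0.54 (19 genes) against -0.25. The members lay below all genes in each range. Of the genes named above, Cyc1 has 58.3% GC and Cox7b 42.0%. With GC regressed out of each library, the members' median was -0.23, with 46 lower without overlap and 6 higher, against 25.5% and 24.8% of all genes in that fit.

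Transcript length also moved with the difference. Over all genes rho with length was 0.35, and over the members -0.10. The members are short, with a median length of 955 bases, and the 820 tested genes under 1000 bases had a median difference of -0.25, with 46.0% lower without overlap and 10.9% higher. With both GC and length regressed out, the members' median was -0.073, that of complex III was -0.28 and that of complex II -0.25. Complexes I, IV and V then stood at -0.087, -0.028 and -0.030. The parts of GC and length in the deposited differences were not tested beyond these fits.

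**Figure D3:**
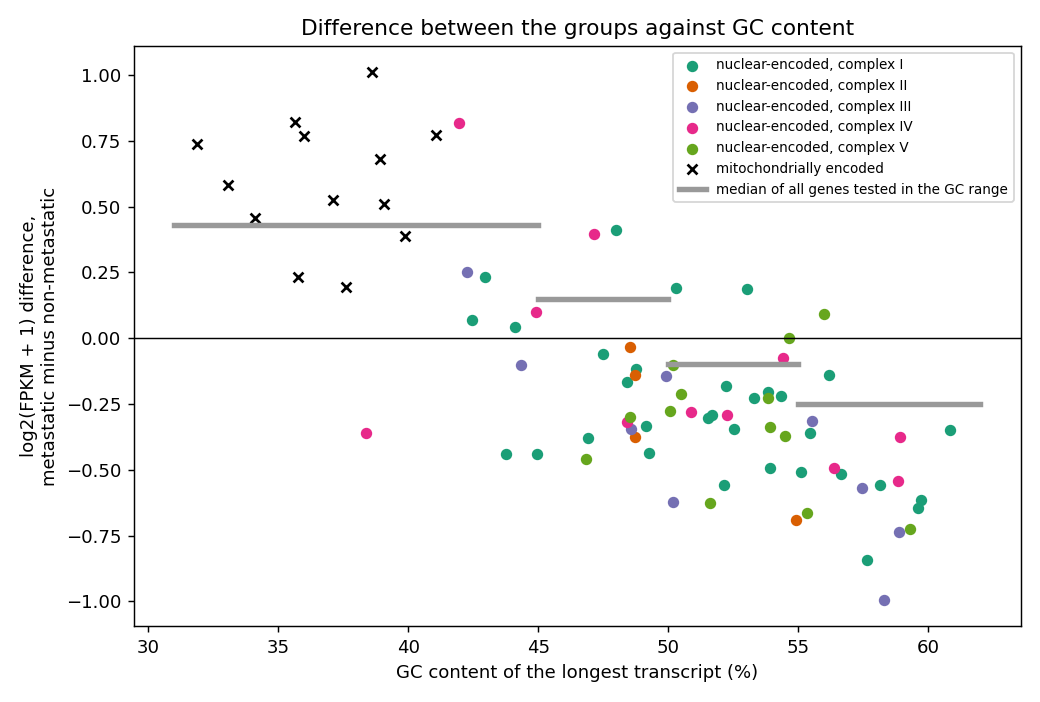
Difference in log2(FPKM + 1), metastatic minus non-metastatic, against the GC content (%) of the longest transcript. Circles are nuclear-encoded subunits above 0 in every line, 1 of them not shown, coloured by complex, crosses are the 13 mitochondrially encoded subunits, and grey bars are medians of all genes tested in 4 GC ranges. The medians of the members run from 0.068 up to 45% GC to -0.54 above 55%, below the grey bar in each range.

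The 13 subunits encoded by mitochondrial DNA had the opposite order of lines. All 13 were higher in both metastatic lines than in both non-metastatic lines, as were 28.3% of all genes tested. None of the 13 passed the test, with adjusted p between 0.328 and 0.537. Their median log2 difference was 0.58. The most positive was mt-Co2, a core subunit of complex IV, at 4366, 3671, 1759 and 2245 FPKM (log2 difference 1.01, SE 0.21, adjusted p = 0.328), followed by mt-Nd4 of complex I at 1242, 1459, 734 and 791 (log2 difference 0.82, SE 0.16, adjusted p = 0.328). The least were mt-Nd1 at 899, 1103, 875 and 866 FPKM (log2 difference 0.19, SE 0.17, adjusted p = 0.537) and mt-Nd2 at 852, 1058, 796 and 820.6 (log2 difference 0.23, SE 0.17, adjusted p = 0.486). The summed level of the 13 over that of the 85 nuclear genes, a ratio that does not depend on library scaling, was 3.33 and 3.50 in the metastatic lines and 1.47 and 2.03 in the non-metastatic lines. Their GC content runs from 31.9% to 41.1%, against 38.4% to 60.8% in the nuclear members. With GC regressed out their median was -0.033, with 2 higher without overlap and 3 lower. Over all genes in that fit 24.8% were higher and 25.5% lower. Relative to the median gene, this was the only 1 of 19 alternatives in which the 13 were negative (-0.038), though scaling a library by 1 factor nearly cancels in that measure. The lowest GC content of all genes tested was also 31.9%, so the 13 reach the edge of that fit.

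**Figure D4:**
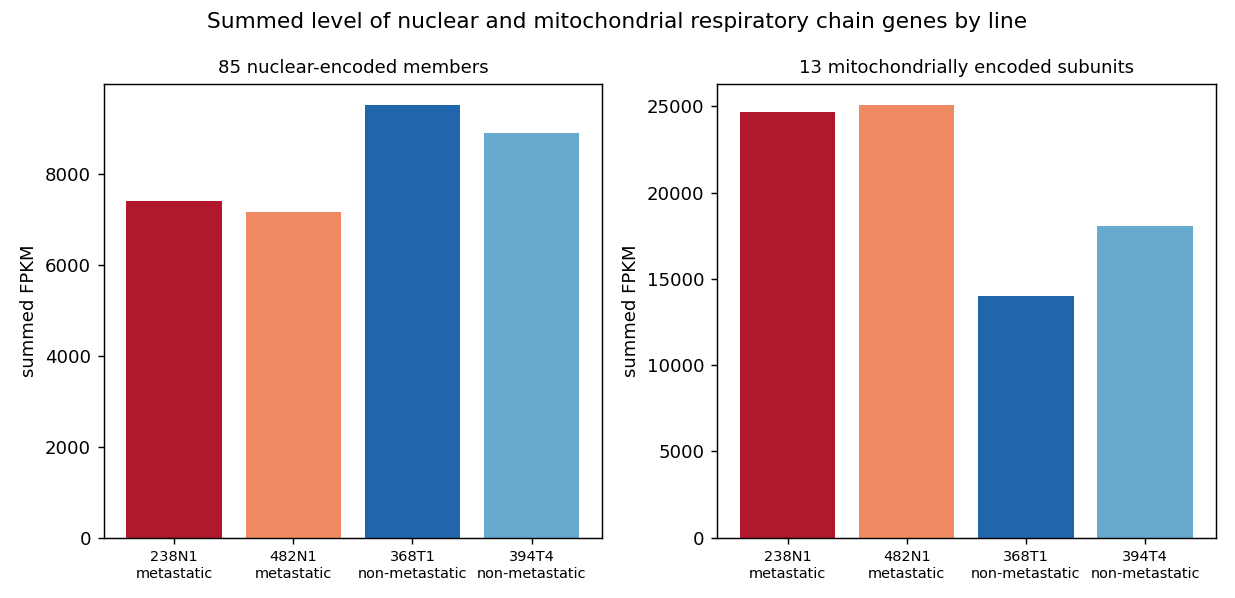
Summed FPKM per line of the 85 nuclear-encoded members (left) and of the 13 mitochondrially encoded subunits (right), each bar 1 library, with axes from 0. The nuclear sums are 7398 and 7167 in the metastatic and 9505 and 8904 in the non-metastatic lines, and the mitochondrial sums 24664 and 25064 against 14003 and 18076.

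Genes that build or feed the chain are given by lists, none of which had a member past the test. Of 29 tested assembly factors, 7 were lower without overlap (24.1%) and 9 higher (31.03%), close to the 26.9% and 28.3% of all genes, with a median of -0.0070. Among them were Ecsit at 8.42, 7.57, 17.1 and 13.1 FPKM and the haem A synthesis enzyme Cox10 at 5.94, 6.16, 10.2 and 9.83 (log2 difference -0.65, SE 0.19, adjusted p = 0.335). On the other side stood Tmem126b at 3.83, 6.04, 1.27 and 2.75 FPKM and Cox16 at 20.5, 27.0, 14.2 and 17.2. Of 18 electron carriers and ubiquinone synthesis genes, 4 were lower (22.2%) and 1 higher (5.56%), with a median of -0.11. Among those above 0 in every line, the extremes were Coq6 at 7.08, 13.9, 20.5 and 16.7 FPKM, Dhodh at 12.2, 9.97, 18.9 and 15.3, Etfdh at 17.8, 22.7, 11.2 and 17.1, and Etfa at 23.5, 20.7, 14.6 and 22.2.

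Of 13 tricarboxylic acid cycle enzymes, 6 were lower without overlap (46.2%) and 1 higher (7.69%), with a median of -0.19. Citrate synthase, Cs, which opens the cycle, had 91.9, 89.7, 137 and 131 FPKM (log2 difference -0.55, SE 0.13, adjusted p = 0.334), and Mdh2, mitochondrial malate dehydrogenase, 243, 255, 405 and 320.0. Sucla2 had 13.5, 21.1, 7.66 and 13.4 FPKM and Dld 20.8, 30.8, 18.7 and 21.4. Of 11 tested regulators of mitochondrial biogenesis, 4 were lower and 4 higher (36.4% each), with a median of 0.33. Nrf1, a transcription factor of respiratory genes, had 18.5, 14.5, 24.0 and 23.5 FPKM (log2 difference -0.51, SE 0.19, adjusted p = 0.349), and the coactivator Pprc1 had 23.7, 25.5, 37.8 and 36.7. Gabpa, the DNA-binding part of another such factor, had 13.5, 28.3, 12.8 and 11.7 FPKM (log2 difference 0.64, SE 0.39, adjusted p = 0.437), and Tfb2m, a mitochondrial transcription factor, 6.73, 6.41, 3.71 and 4.76. The coactivator Ppargc1a did not exceed 1.13 FPKM. Mitochondrial ribosomal proteins had a median of -0.40 over 80 genes, with 52 (65%) lower without overlap and 4 (5%) higher. Cytosolic ribosomal proteins had a median of -0.28 over 74 genes, with 39 (52.7%) and 5 (6.76%). Over all genes tested the shares were 26.9% and 28.3%, and over tested genes under 1000 bases 46.0% and 10.9%.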

How the data were processed

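RNA-seq values of 4 cultured mouse lung cancer lines were used as deposited. TruSeq libraries of total RNA were read as pairs of 100 bp and aligned to mm9, per the series design text, and the submitters' processing notes name TopHat. Not given in the sources used here are the quantifier, its annotation and its use of strand. The authors deposited FPKM in 1 column per line, per the file headers, with no stated scaling between libraries. Part of the genotype shared by all 4 lines and some genes under the naming rule are not reported here. The growth notes describe cultured cells and the treatment notes tumours.

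The row of highest mean was kept per symbol. Genes averaging at least 1 FPKM entered limma 3.58.1 (R 4.3.3) with a variance trend on log2(FPKM + 1), 2 against 2 lines, no covariate, two-sided, Benjamini-Hochberg adjusted p under 0.05. Log2 differences understate the change of low genes. The fit was also run on simulated data with the same spread for every gene and differences larger than the members' median. Those data have no GC or length trend, so the run does not show how the fit performs on these libraries. Positions, GC and length came from GENCODE vM1 on NCBIM37, which held 99.0% of the IDs, with GC for 87.0% of tested genes and 77 members. Copies were sought with blastn 2.17.0. The rest was computed with Python 3.11.15 and pandas 2.3.3. Alternatives were other pseudocounts (0.1, 5), filters (none, 5), scalings, limma settings, each library left out, rows of a symbol added up, genes at 0 left out and, chosen after seeing the data, scaling to protein-coding genes and regression on GC or on GC and length. The members and lists were chosen with earlier results of these data known. Named are the core and isoform lists, the extremes of level and difference in each complex, members at 0 in a line with 20 FPKM in another, non-subunits, and the extremes of the other lists. Some further members were named after their values were seen.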

Additional observations from a re-analysis of the deposited data

How the results depend on the processing

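No member was past the test in the fit as reported or in 18 of the 19 alternatives. With libraries scaled to the sum of all FPKM, 2 members were called higher, Atp5f1 (adjusted p = 0.000425) and Ndufs1 (adjusted p = 0.00782), both listed at 0 in a library. Of 549 values recomputed for 29 named genes, 521 kept direction and side of the threshold. In that scaling the count without overlap was 0 lower and 15 higher, and the medians were 0.35 over all members, 0.28, 0.37, 0.29, 0.35 and 0.36 for complexes I to V and 1.22 for the mitochondrially encoded genes, and positive values were given for Ndufv1 (0.12), Sdha (0.59), Uqcrc1 (0.067), Cox6a1 (0.097), Cox5b (0.13), Atp5b (0.013), Cs (0.079) and Nrf1 (0.094). Without the highest row the counts were 21 and 15, the medians -0.056 over all members, -0.088, -0.024, -0.11, -0.056 and -0.043 by complex and 0.82 for the mitochondrial genes, and Sdha was at 0.20. Scaled to protein-coding genes the counts were 26 and 13, the medians -0.072 over all members, -0.10, -0.040, -0.13, -0.072 and -0.059 by complex and 0.80 for the mitochondrial genes, and Sdha at 0.18. With quantile normalization the medians were -0.13 over all members, -0.15, -0.088 and -0.14 for complexes I, II and III, -0.11 for complex V and 0.76 for the mitochondrial genes, Sdha was at 0.13, and 9 members were lower at an unadjusted p under 0.05. Centred on the median gene, 4 members were higher without overlap, the median was -0.39 over all members and -0.44 for complex III, Ndufv2 was at -0.027 and Atp5j at -0.00142. With GC regressed out the median of complex III was -0.41 and that of the mitochondrial genes -0.033, and Ndufv2 (-0.32), Uqcrb (-0.15), mt-Nd1 (-0.38) and mt-Nd2 (-0.41) turned negative. With GC and length regressed out the medians were -0.073 over all members, -0.087, -0.28, -0.028 and -0.030 for complexes I, III, IV and V and 0.13 for the mitochondrial genes, and Ndufv2 (-0.16), mt-Nd1 (-0.17) and mt-Nd2 (-0.21) were negative. With 1 library left out, where the lone line was assumed to vary like the other group, the median over all members ran from -0.32 to -0.23 and that of complex III from -0.52 to -0.17, the higher value in each case without 482N1. That of the mitochondrial genes ran from 0.38 without 368T1 to 0.78 without 394T4. The count without overlap ran from 48 to 52 lower and from 9 to 16 higher, since fewer lines have to separate. Members lower at an unadjusted p under 0.05 numbered 3 without 368T1, 10 without 394T4 and 11 without 482N1. In these fits Ndufv2 ran from -0.11 without 238N1 to 0.24 without 482N1, Sdha from -0.12 without 368T1 to 0.051 without 394T4, Atp5j from -0.043 without 482N1 to 0.23 without 238N1, and Atp5f1 from 0 without 482N1 to 6.19 without 238N1. The cause of these changes was not tested. Shares of all genes are not given beside the counts of members in these alternatives. The counts alone do not separate the members from a shift of the whole table. No paired analysis was possible because the lines come from different tumours and the replicate numbers only follow accession order. With 2 lines per group and unknown read totals, the precision of each value is limited.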
